A study of Homo sapiens and Mus musculus with 12 samples.

Results

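Interferon-stimulated genes were followed in 2 comparisons in which EHMT2, a methyltransferase of histone H3 lysine 9, was deleted or inhibited in natural killer (NK) cells. The members were chosen by name, from 59 symbols that stand for 58 genes, since RIGI and DDX58 are the same gene. They were looked up as rows of a human count table of 18304 genes and, in title case, of a mouse table of 22021 genes. The human rows held 55 of the 58 genes and the mouse rows 50. MX2, IDO1 and CXCL9 in human, and Mx2, Ifit5, Ifi6, Oas1, Oasl, Herc5, Trim22 and Gbp1 in mouse, were not analysed here. The genes were split by textbook biology into a type I group of 45 genes and an IFN-gamma group of 13 genes.

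Interferons are secreted proteins that warn cells of infection. Type I interferons act through the receptor chains IFNAR1 and IFNAR2 and the kinases JAK1 and TYK2, and a complex that contains STAT2 and IRF9 then binds the interferon-stimulated response element (ISRE). IFN-gamma, the type II interferon, acts through IFNGR1 and IFNGR2 and the kinases JAK1 and JAK2, and leads to binding at the gamma-activated site (GAS) and to induction of IRF1. NK cells are both a main source of IFN-gamma and a target of both kinds of interferon. Many genes of the IFN-gamma group also answer to type I interferon, so the groups differ by emphasis.

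The mouse samples were NK cells (CD3-NK1.1+) sorted from the spleens of C57BL/6J mice of 8 to 12 weeks, matched by age and sex. WT mice carried Ehmt2 flox/flox alone, and KO mice carried Ehmt2 flox/flox with Ncr1-driven iCre, so deletion was directed to cells that express Ncr1, the gene of NKp46. The sample titles name EHMT2-KO, whereas the genotype label reads Ezh2-KO, and the titles were followed. The human samples were NK92MI cells, an established line of human NK cells engineered to produce IL-2, treated with BIX-01294, an inhibitor of EHMT2 and of its partner EHMT1, or with the solvent DMSO. A legend of the study gives 0.25 μM for 5 days for BIX-01294 in this line. Each of the 4 groups had 3 libraries, and nothing in the sources used here ties a library to a separate animal or culture, so p-values measure the spread between libraries, which may be technical.

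Total counts lay between 25891680 and 37438868 in the mouse libraries and between 16579469 and 17165446 in the human libraries. Ehmt2 itself was at 275, 284 and 285 CPM (a gene's count relative to the total count of its library, with TMM scaling) in WT NK cells and at 171, 143 and 137 CPM in KO NK cells, a log2 fold change of −0.91 (adjusted p = 0.0162, edgeR). Ezh2, the gene of the genotype label, averaged 44 ± 2.15 CPM in the WT libraries and 37.6 ± 2.35 CPM (SD, n = 3 each) in the KO libraries and did not pass the test (adjusted p = 0.116, edgeR). All 12 NK markers were detected in each mouse library and all 8 in each human library. Markers of other leukocytes were also present in the mouse libraries and are given beside the results they move with. In NK92MI cells the monocyte gene CD14 had at most 9 counts in a library, whereas CD3E was counted at 486 to 591 CPM. CSF1R, a macrophage and monocyte gene, had 35 to 56 counts with DMSO and 62 to 77 with BIX-01294 (log2 0.74, adjusted p = 0.0186, edgeR).

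Promoter sequences of the human members were searched for the ISRE and the GAS. RefSeq promoters (GRCh38.p14, 250 bases before the start to 50 after it) were matched for 46 of the 58 genes and searched on both strands for an ISRE core, GAAANNGAAA, and for a GAS, TTCNNNGAA. The ISRE core was found in 27 of the 46 promoters and in 3.57% of all 35116 promoters. The GAS was found in 6 of the 46 and in 7.66% of all promoters. Neither was found in 16 of the 46, RSAD2 among them. The members were chosen as known interferon-stimulated genes, so their excess of ISRE cores follows from that choice and is no separate result. Of the matched members that rose with BIX-01294, 10 of 15 held the ISRE core, against 2 of the 4 that fell and 14 of the 26 that were tested and not called. In the IFN-gamma group 7 of 10 promoters held the ISRE core and 0 held the GAS letters. A match is a description of the letters and not of binding, and mouse promoters were not analysed here.

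The 7 promoters printed here are those of ISG15, which rose, IFIT1, which did not pass the test, CXCL10, GBP4 and TAP1, which rose, PSMB10, which fell, and the transcription factor IRF1, which rose. Each runs 5′ to 3′ on the gene's strand from 250 bases before the start to 10 bases after it, and capitals mark the ISRE core on either strand or, for IRF1, the GAS. The windows lie at chr1:1013247-1013506 (plus strand) for ISG15, chr10:89392373-89392632 (plus) for IFIT1, chr4:76023488-76023747 (minus) for CXCL10, chr1:89198933-89199192 (minus) for GBP4, chr6:32853695-32853954 (minus) for TAP1, chr16:67936841-67937100 (minus) for PSMB10 and chr5:132490764-132491023 (minus) for IRF1.
ISG15: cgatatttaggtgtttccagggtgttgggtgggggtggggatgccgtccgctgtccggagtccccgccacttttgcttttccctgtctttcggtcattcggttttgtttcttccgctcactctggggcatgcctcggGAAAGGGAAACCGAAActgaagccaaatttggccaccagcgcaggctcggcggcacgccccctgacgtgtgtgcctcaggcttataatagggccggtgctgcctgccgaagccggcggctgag
IFIT1: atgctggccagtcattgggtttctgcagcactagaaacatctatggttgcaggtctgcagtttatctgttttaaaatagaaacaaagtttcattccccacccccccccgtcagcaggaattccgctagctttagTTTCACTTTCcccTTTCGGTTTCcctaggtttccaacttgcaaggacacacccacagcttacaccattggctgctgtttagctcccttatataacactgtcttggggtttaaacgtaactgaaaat
CXCL10: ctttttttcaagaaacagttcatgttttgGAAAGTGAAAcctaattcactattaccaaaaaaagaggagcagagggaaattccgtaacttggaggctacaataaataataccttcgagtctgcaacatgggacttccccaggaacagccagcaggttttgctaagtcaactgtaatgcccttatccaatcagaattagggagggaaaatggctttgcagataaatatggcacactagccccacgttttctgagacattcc
GBP4: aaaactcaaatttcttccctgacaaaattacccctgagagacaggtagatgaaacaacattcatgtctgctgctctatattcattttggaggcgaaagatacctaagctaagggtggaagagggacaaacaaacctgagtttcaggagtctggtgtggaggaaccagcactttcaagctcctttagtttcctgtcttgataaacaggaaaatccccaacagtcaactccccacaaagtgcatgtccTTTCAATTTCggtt
TAP1: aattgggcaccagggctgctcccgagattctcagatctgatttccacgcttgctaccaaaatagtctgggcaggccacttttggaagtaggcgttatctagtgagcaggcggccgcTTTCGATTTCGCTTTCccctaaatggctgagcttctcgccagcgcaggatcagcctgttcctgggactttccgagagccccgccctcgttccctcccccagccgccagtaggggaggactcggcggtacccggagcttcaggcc
PSMB10: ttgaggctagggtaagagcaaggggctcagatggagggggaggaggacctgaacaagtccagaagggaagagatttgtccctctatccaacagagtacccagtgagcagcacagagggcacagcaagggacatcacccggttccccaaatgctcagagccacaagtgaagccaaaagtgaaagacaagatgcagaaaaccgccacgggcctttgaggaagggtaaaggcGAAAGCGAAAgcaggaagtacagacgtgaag
IRF1: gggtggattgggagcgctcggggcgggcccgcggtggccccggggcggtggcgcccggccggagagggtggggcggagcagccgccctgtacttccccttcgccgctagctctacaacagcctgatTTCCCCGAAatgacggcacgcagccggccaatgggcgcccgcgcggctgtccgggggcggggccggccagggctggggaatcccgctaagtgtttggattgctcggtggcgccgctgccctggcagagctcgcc
In ISG15 and TAP1 the search found 2 overlapping ISRE cores, which print as 1 longer run in capitals, and in IFIT1 it found 2 separate ones. The core of CXCL10 began 221 bases before the start, and that of GBP4 began 4 bases before it. PSMB10, whose expression fell, held 1 core like GBP4 and CXCL10, whose expression rose.

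BIX-01294 raised IFNG itself more than any member in NK92MI cells, and it raised and lowered members of both groups. In the IFN-gamma group CXCL10, GBP4, TAP1, GBP2, GBP5 and WARS1 rose and PSMB10 fell. In the type I group 13 genes rose, led by RSAD2, and 7 fell, led by PML and OASL. Of the type I genes fixed by name, ISG15 and RSAD2 rose. The others, MX1, IFIT1, IFIT3, OAS2, USP18, BST2, EIF2AK2, STAT2, IRF9 and SP100, did not pass the test in either direction.

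IFNG, at chr12:68154768-68159740 (GRCh38, minus strand), was counted at 31.1, 28.4 and 35 CPM in the DMSO libraries and at 259, 165 and 193 CPM in BIX-01294 replicates 1, 2 and 3. The groups were far apart, and BIX-01294 replicate 1 was the highest. The fold change was 6.53 (log2 2.71, SE 0.14, adjusted p = 1.9e-08, edgeR). Of the type I interferon genes, IFNB1 had between 0 and 3 counts in the 6 libraries and did not pass the filter on low counts. A count of 0 allows up to 3 counts, or 0.175 to 0.181 CPM across the libraries. Interferon alpha genes in human were not analysed here.

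Of the 55 members tested in NK92MI cells, 19 rose (34.5%), where 18.4% of all 12727 genes tested rose at an adjusted p under 0.05. Another 8 fell (14.5%), against 18.4% of all genes. At the study's stricter threshold (adjusted p below 0.01, with an absolute log2 fold change above 0.5) 8 members rose and 1 fell, while 6.24% of all genes rose and 5.43% fell. The BIX-01294 libraries lay entirely above the DMSO libraries for 22 members (40%, against 24.1% of all genes) and entirely below for 11 (20%, against 23.9%). The members' median log2 fold change was 0.10, and that of all genes −0.0083. CXCL10 and IFI27 passed the filter on low counts through the BIX-01294 libraries alone. Of the 8 NK markers 5 rose and 2 fell, with a summed level of 3670 to 4010 CPM with DMSO and 4310 to 5310 CPM with BIX-01294, and their part in the result was not tested.

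In the IFN-gamma group 6 of 11 genes tested rose (54.5%) and 1 fell (9.09%), against 18.4% of all genes in each direction. The median log2 fold change was 0.17. CXCL10 encodes a chemokine that draws T and NK cells through the receptor CXCR3. It was counted at 0.815, 0.643 and 0.533 CPM in the DMSO libraries and at 4.44, 2.7 and 2.6 CPM in the BIX-01294 libraries, which is 9 to 14 counts against 44 to 73 counts. All BIX-01294 libraries were above all DMSO libraries, and replicate 1 was the highest, as for IFNG. The fold change was 4.84 (log2 2.28, SE 0.33, adjusted p = 0.000134, edgeR), and it rested on low counts. CXCL10 was tested only because its level was high enough in the BIX-01294 libraries, so its call and its place among the 6 that rose carry that condition, and without it 5 of the 10 other genes rose.

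Guanylate-binding proteins are GTPases that attack the vacuoles of intracellular pathogens. GBP4, at chr1:89181144-89198942, was at 251, 230 and 240 CPM in the DMSO libraries and at 427, 407 and 371 CPM in the BIX-01294 libraries, a fold change of 1.67 (log2 0.74, SE 0.068, adjusted p = 2.82e-06, edgeR). GBP2 was at 271, 267 and 252 against 332, 340 and 332 CPM (log2 0.35, adjusted p = 0.000531, edgeR), and GBP5 was at 735, 714 and 704 against 818, 828 and 783 CPM (log2 0.17, adjusted p = 0.0286, edgeR). For these 3 genes the groups did not overlap. GBP1 had the opposite sign, at 197, 202 and 207 CPM with DMSO and 185, 174 and 183 CPM with BIX-01294, and did not pass the test (adjusted p = 0.0531, edgeR). Exons of GBP2 overlap those annotated for GBP7, so reads there are uncertain.

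The antigen processing genes moved apart. TAP1, a subunit of the transporter that carries peptides into the endoplasmic reticulum for MHC class I, was at 130, 132 and 117 CPM with DMSO and at 201, 190 and 202 CPM with BIX-01294, a fold change of 1.56 (log2 0.64, SE 0.066, adjusted p = 7.56e-06, edgeR). TAP2, the other subunit, was between 5.92 and 8.44 CPM in all libraries with overlapping groups. PSMB10, an inducible catalytic subunit of the immunoproteasome, was at 30.6, 36.1 and 34.3 CPM with DMSO and at 19.2, 14.6 and 19.7 CPM with BIX-01294. It fell 1.89-fold (log2 −0.92, SE 0.12, adjusted p = 4.93e-05, edgeR), with no overlap between groups. Exons of PSMB10 overlap those of an unnamed gene annotated on the same strand, so reads there are uncertain. The other inducible subunits, PSMB8 and PSMB9, had log2 fold changes of −0.057 and −0.064 and overlapping libraries. WARS1, the tryptophanyl-tRNA synthetase that IFN-gamma induces, was at 147, 140 and 137 against 156, 157 and 164 CPM (log2 0.17, adjusted p = 0.0469, edgeR).

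**Figure D1:**
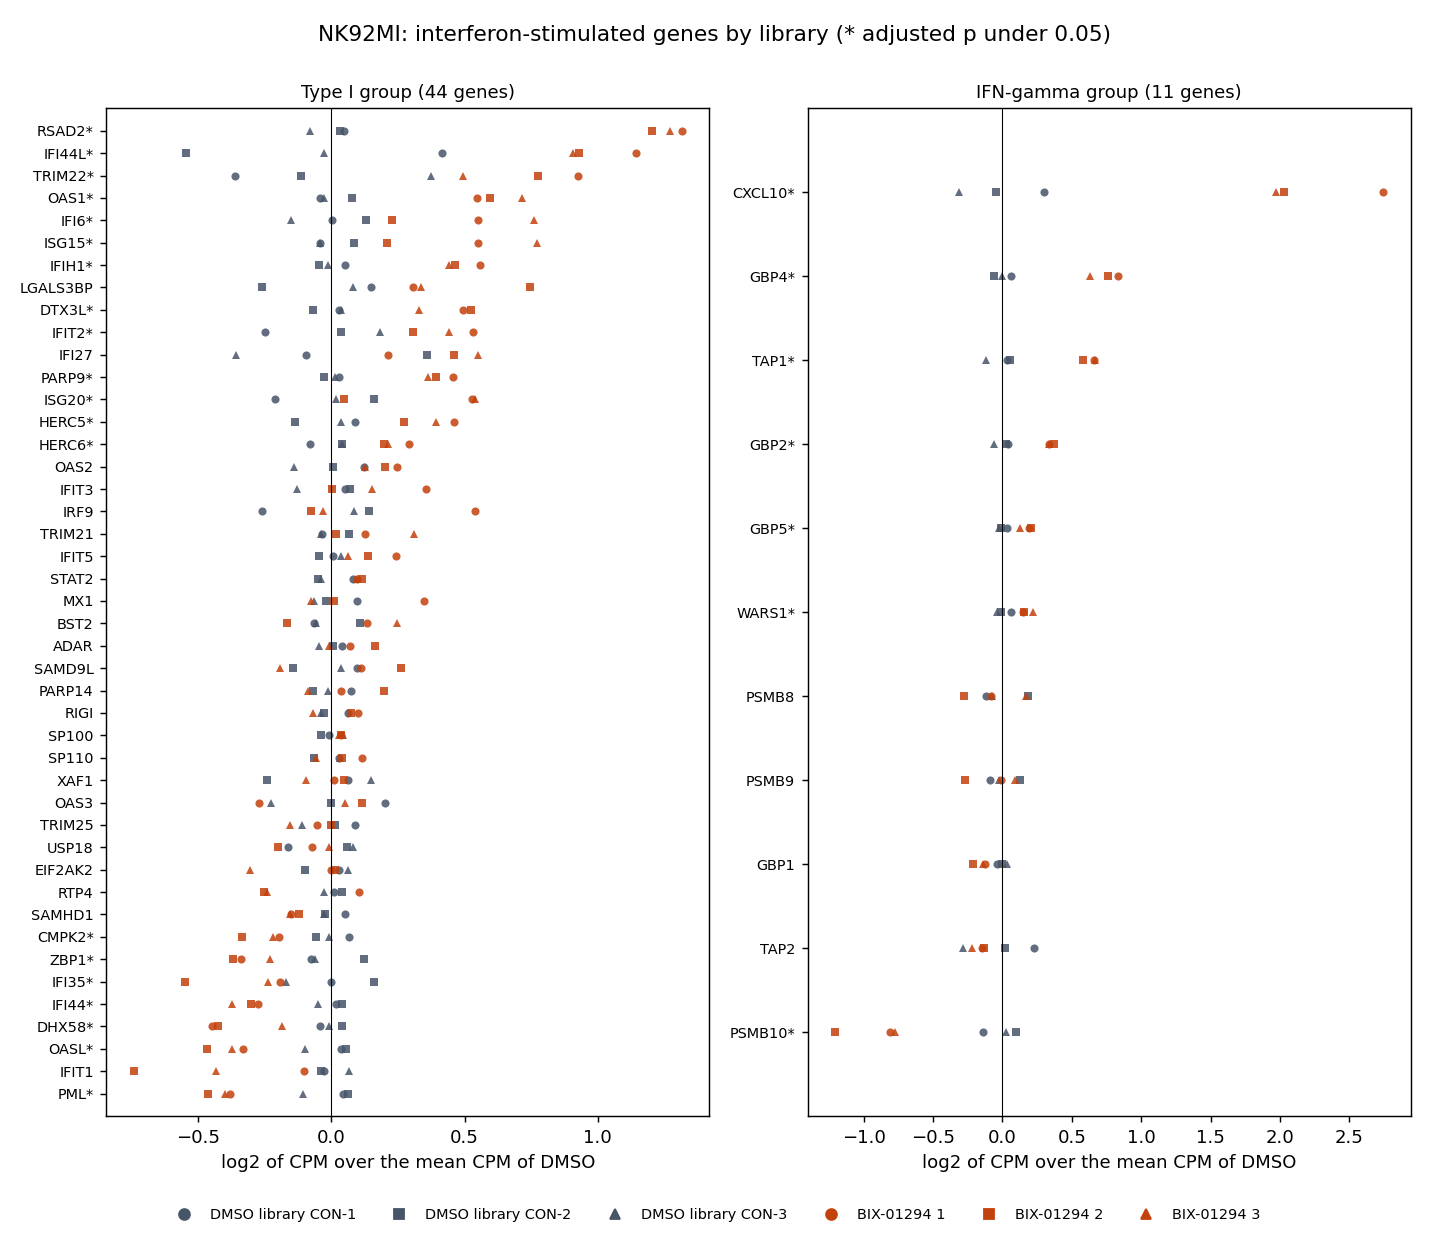
Each point is 1 NK92MI library, plotted as the log2 ratio of its CPM to the mean CPM of the 3 DMSO libraries (x axis), with one gene per line, the type I group on the left and the IFN-gamma group on the right. Orange points are BIX-01294 and grey points DMSO, and an asterisk marks an adjusted p under 0.05 by edgeR. RSAD2 and CXCL10 stand farthest to the right, PSMB10 farthest to the left, and most other genes stay within a log2 ratio of 1.

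In the type I group 13 of 44 genes tested rose (29.5%) and 7 fell (15.9%), against 18.4% of all genes in each direction, the median log2 fold change being 0.091. The rises ran from 1.18-fold to 2.41-fold and the falls from 1.19-fold to 1.33-fold. RSAD2 encodes viperin, an enzyme that makes a chain-terminating nucleotide against viruses. It was at 71.5, 70.6 and 65.3 CPM with DMSO and at 172, 159 and 167 CPM with BIX-01294. The groups were separate with little spread within either, and the fold change was 2.41 (log2 1.27, SE 0.067, adjusted p = 2.14e-08, edgeR). CMPK2, its neighbour on the opposite strand, encodes a nucleotide kinase and went the other way, from 157, 144 and 149 CPM to 131, 119 and 129 CPM (log2 −0.25, adjusted p = 0.0098, edgeR). Exons of these 2 genes overlap in the annotation, and since the strand setting of the counting is not stated, reads in the overlap cannot be told apart.

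The ubiquitin-like modifier ISG15 and the ligase that attaches it both rose. ISG15 was at 25.7, 28.1 and 25.7 CPM with DMSO and 38.8, 30.6 and 45.3 CPM with BIX-01294 (log2 0.53, SE 0.12, adjusted p = 0.00392, edgeR). HERC5, the ISG15 ligase, was at 48.7, 41.7 and 47.0 against 63.0, 55.3 and 60.2 CPM (log2 0.38, adjusted p = 0.0029, edgeR), and its relative HERC6 rose 1.18-fold (adjusted p = 0.0458, edgeR). USP18, the protease that removes ISG15 and dampens signalling at IFNAR2, was between 12.2 and 14.8 CPM in all 6 libraries (log2 −0.088, adjusted p = 0.592, edgeR).

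Among the RNA sensors IFIH1, which encodes MDA5 and detects long double-stranded RNA, rose from 50.5, 47.2 and 48.3 CPM to 71.7, 67.1 and 66.1 CPM (log2 0.49, SE 0.072, adjusted p = 0.000153, edgeR). RIGI, which detects short RNA with a 5′ triphosphate, was between 53.1 and 59.7 CPM with overlapping groups. DHX58, the third gene of this family, which encodes LGP2, fell from 17.1, 18.1 and 17.5 CPM to 12.9, 13.1 and 15.5 CPM (log2 −0.34, adjusted p = 0.0251, edgeR). ZBP1, a sensor of Z-form nucleic acids, fell 1.24-fold (adjusted p = 0.0189, edgeR), and EIF2AK2, the kinase PKR, did not pass the test (log2 −0.090, adjusted p = 0.433, edgeR).

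The oligoadenylate synthetases, which activate RNase L, did not move together. OAS1 rose from 10.3, 11.2 and 10.4 CPM to 15.5, 16 and 17.4 CPM (log2 0.62, SE 0.11, adjusted p = 0.000733, edgeR). OASL, which lacks the synthetase activity, fell from 86.6, 87.9 and 79.0 CPM to 67.2, 61.2 and 65.2 CPM (log2 −0.39, SE 0.072, adjusted p = 0.000887, edgeR). OAS2 was at 85, 78.5 and 70.8 CPM with DMSO and at 92.7, 89.9 and 85.3 CPM with BIX-01294 (adjusted p = 0.0631, edgeR), and OAS3 was between 1.89 and 2.62 CPM with overlapping groups.

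The IFIT proteins, which bind viral RNA ends, also divided. IFIT2 rose from 8.38, 10.2 and 11.3 CPM to 14.4, 12.3 and 13.5 CPM (log2 0.43, adjusted p = 0.0218, edgeR). IFIT1 was at 9.54, 9.47 and 10.2 CPM with DMSO and at 9.07, 5.82 and 7.2 CPM with BIX-01294, all below DMSO, but did not pass the test (log2 −0.40, SE 0.16, adjusted p = 0.0619, edgeR). IFIT3 and IFIT5 had log2 fold changes of 0.18 and 0.15 and did not pass it. IFI6, a mitochondrial inhibitor of apoptosis, rose 1.44-fold (adjusted p = 0.00282, edgeR). IFI44L rose 1.99-fold, from 5.47, 2.81 and 4.02 CPM to 9.07, 7.82 and 7.68 CPM (adjusted p = 0.00185, edgeR), while its relative IFI44 fell 1.25-fold (adjusted p = 0.0308, edgeR).

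PARP9 and DTX3L, which form a complex of an ADP-ribosyltransferase-like protein and a ubiquitin ligase, rose together. PARP9 went from 107, 103 and 106 CPM to 144, 138 and 135 CPM (log2 0.41, adjusted p = 0.000193, edgeR), and DTX3L from 202, 189 and 203 CPM to 279, 285 and 249 CPM (log2 0.45, adjusted p = 0.000184, edgeR). Their exons overlap on opposite strands, so here too reads in the overlap cannot be told apart. The nuclease ISG20 rose 1.31-fold with overlapping groups (adjusted p = 0.0423, edgeR), and the ubiquitin ligase TRIM22 rose 1.68-fold from at most 3.20 CPM (adjusted p = 0.0222, edgeR). PML, the scaffold of nuclear bodies, fell from 74.9, 75.9 and 67.5 CPM to 55.8, 52.8 and 55.1 CPM (log2 −0.41, SE 0.073, adjusted p = 0.000628, edgeR), whereas the nuclear body protein SP100 stayed between 153 and 162 CPM (log2 0.034). IFI35 fell 1.25-fold (adjusted p = 0.0314, edgeR).

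The other type I genes did not pass the test. The GTPase MX1 was between 14.9 and 20.0 CPM (log2 0.10), and BST2, the tetherin that holds virions to the cell, was between 182 and 242 CPM (log2 0.082). STAT2 and IRF9, which are parts of the type I complex, had log2 fold changes of 0.10 (SE 0.073) and 0.17 (SE 0.21). IFI27 and LGALS3BP were at most at 1 and 1.41 CPM. XAF1, TRIM21, TRIM25, PARP14, SAMD9L, SAMHD1, ADAR, RTP4 and SP110 had log2 fold changes between −0.14 (SAMHD1) and 0.16 (TRIM21).

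Several of the smaller type I changes depended on single libraries. When each of the 6 libraries was left out in turn, DHX58 kept its call in 1 fit, without BIX-01294 replicate 3, and IFI44 in 1 fit, without BIX-01294 replicate 2, with adjusted p up to 0.112 and 0.0894 by edgeR. IFIT2 and TRIM22 lost their calls without BIX-01294 replicate 1, CON-1 or CON-2 (adjusted p up to 0.114 and 0.096, edgeR), and IFI35 without BIX-01294 replicate 2, CON-1 or CON-2 (up to 0.152). ZBP1 lost its call without BIX-01294 replicate 1 or CON-2 (up to 0.0902), and CMPK2 without CON-1 (0.0661), where CON-1 to CON-3 are the DMSO libraries. ISG20 and HERC6, whose adjusted p lay closest to the threshold in this group, were not followed in these fits.

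Receptors and transcription factors of the pathway, which are no members, were read beside them. Of 31 pathway genes tested, 13 rose (41.9%), IFNG itself among them, and 6 fell (19.4%), against 18.4% of all genes in each direction. The receptor genes IFNGR1 and IFNAR1 rose. IFNGR1 went from 60.9, 56.7 and 57.8 CPM to 85.5, 81.2 and 89.9 CPM (log2 0.55, adjusted p = 4.8e-05, edgeR), and IFNAR1 from 75.2, 71.0 and 75.1 CPM to 126, 126 and 117 CPM (log2 0.74, adjusted p = 2.04e-06, edgeR). IRF1, a transcription factor that IFN-gamma induces, rose 1.35-fold (93.7, 95.0 and 92.0 CPM against 132, 117 and 130 CPM, adjusted p = 0.000222, edgeR), and IRF7 rose 1.31-fold (adjusted p = 0.021, edgeR, and 0.103 without CON-3).

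B2M, the light chain of MHC class I, rose 1.66-fold (adjusted p = 4.7e-06, edgeR), and IL18RAP, a chain of the receptor for IL-18, which induces IFN-gamma in NK cells, rose 1.90-fold (adjusted p = 1.05e-05, edgeR). NLRC5, the transactivator of MHC class I genes, fell 1.37-fold, from 105, 105 and 104 CPM to 72.9, 86.5 and 70.2 CPM (adjusted p = 0.000574, edgeR). TBX21, which encodes T-bet, an activator of IFNG, fell 1.38-fold from 226, 244 and 227 CPM to 171, 162 and 173 CPM (adjusted p = 7.61e-05, edgeR). IRF8, IKBKE and JAK1 fell 1.48-fold, 1.70-fold and 1.21-fold (adjusted p = 0.000148, 0.000215 and 0.00315, edgeR).

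In KO NK cells of the mouse, Ifng was also higher, but few members passed the test. Among the genes of the IFN-gamma group Gbp4, Psmb10 and Tap2 rose, and of the type I group Trim21 rose and Ifih1 and Pml fell. The largest differences, the lower levels of Oas2 and Rsad2 in KO NK cells, did not pass the test.

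Ifng, at chr10:118441046-118445892 (GRCm38, plus strand), was at 15.9, 25.4 and 16.2 CPM in WT replicates 1, 2 and 3 and at 39.3, 43.0 and 38.3 CPM in KO replicates 1, 2 and 3. Exons of Ifng overlap those annotated for Gm49751 on the same strand, so reads there are uncertain. WT replicate 2 was the nearest to the KO libraries. The fold change was 2.10 (log2 1.07, SE 0.19, adjusted p = 0.0279, edgeR). It kept its direction without each library in turn, at log2 fold changes of 0.955 to 1.33, but not its call, as the adjusted p was 0.124 without KO replicate 2, 0.131 without KO replicate 3, 0.0716 without WT replicate 1 and 0.115 without WT replicate 3. Among ligands of type I receptors, all 14 interferon alpha genes listed had 0 counts in the 6 libraries, which allows up to 3 counts, or 0.0801 to 0.116 CPM, and Ifnb1 had 2 counts in WT replicate 1 and 0 in the others.

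Markers of NK cells were higher beside Ifng. Of 12 NK markers 7 rose in KO NK cells and the other 5, Ncr1, Il2rb, Itga2, Eomes and Prf1, were higher without passing the test (median log2 fold change 0.79), and their summed level was 5610 to 9530 CPM in WT and 10800 to 12500 CPM in KO libraries, with 0 markers at zero. Markers of macrophages and monocytes moved the other way, with 13 of 13 lower, 9 past the test, and a summed level of 3070 to 9250 CPM in WT against 1560 to 2860 CPM in KO libraries. B cell markers were lower in 10 of 10, with 0 past the test, at 501 to 1510 against 51.7 to 474 CPM, and no marker of either list was at zero. Plasmacytoid dendritic cells are the main makers of type I interferon, and all 7 of their markers on the list were lower, 3 past the test, at 1010 to 1600 against 624 to 848 CPM. Of 10 neutrophil markers 9 were tested and 9 were lower, 2 past the test, with the list at 191 to 1510 against 42.2 to 207 CPM, and Ly6g and Elane had 0 counts in KO replicates 2 and 3. Of the 9 tested, 4 passed the filter on low counts through 1 group alone, so their direction carries that condition. Dendritic cell markers were lower in 7 of 8, 2 past the test, at 8280 to 9700 against 4300 to 6940 CPM, and T cell markers in 5 of 7, with 1 higher past the test, at 147 to 246 against 95.7 to 206 CPM. In these bulk libraries fewer cells of a type and less RNA per cell cannot be told apart, and the part of these lists in the results on members was not tested.

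**Figure D2:**
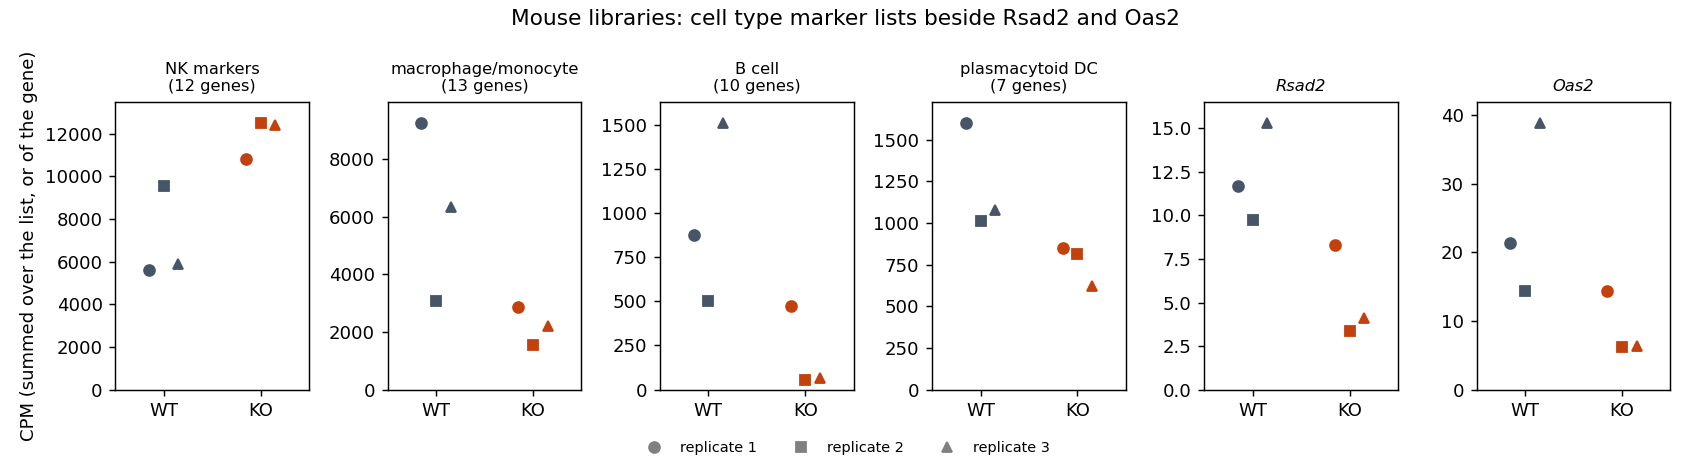
Summed CPM of 4 marker lists and CPM of Rsad2 and Oas2 (y axes, from 0) in each WT (grey) and KO (orange) library, with the marker shape giving the replicate number. The NK list is higher in all KO libraries, the other lists are lower, and Rsad2 and Oas2 are lower in KO, with KO replicate 1 the highest KO library and WT replicate 2 the lowest WT library for both genes.

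Of the 48 members tested in mouse, 4 rose (8.33%), where 4.44% of all 13189 genes rose at an adjusted p under 0.05, and 2 fell (4.17%), against 7.43% of all genes. At the study's threshold 0 members were called and 0% of all genes in either direction by edgeR, although 24 members (50%) and 35.8% of all genes had an unadjusted p under 0.05 and DESeq2, at an adjusted p under 0.05, called 5 members higher and 12 lower beside 1096 higher and 1996 lower of all 13955 genes it tested. The KO libraries lay entirely above the WT libraries for 12 members (25.0%, against 19.1% of all genes) and entirely below for 11 (22.9%, against 19.3%). No member passed the filter on low counts through 1 group alone, and Ifi44l and Ido1 did not pass it. These counts changed with the libraries. Without WT replicate 2, edgeR called 5 members higher and 12 lower, without KO replicate 1 it called 2 higher and 7 lower, and without KO replicate 2, KO replicate 3, WT replicate 1 or WT replicate 3 it called 0.

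The 2 groups of members leaned in different directions. In the IFN-gamma group 9 of 11 genes were higher, their median log2 fold change being 0.13, and in the type I group 15 of 37 were higher, with a median of −0.17, while the median of all genes was 0.014 and 51.5% of them were higher. The difference between the groups was not tested. Gbp4, at chr5:105115767-105139586 (minus strand), was at 91.0, 121 and 93.7 CPM in WT and at 137, 165 and 141 CPM in KO NK cells, with no overlap (log2 0.54, SE 0.13, adjusted p = 0.0448, edgeR). Exons of Gbp4 overlap those of Gbp8 and Gbp9 on the same strand, and this family has near-identical copies, so the split of reads among them is uncertain. Psmb10 was at 145, 143 and 133 CPM in WT and 176, 188 and 167 CPM in KO (log2 0.33, SE 0.081, adjusted p = 0.0452, edgeR), and Tap2 at 210, 218 and 206 against 258, 250 and 261 CPM (log2 0.28, SE 0.073, adjusted p = 0.0485, edgeR). Both were separate between genotypes by a small margin.

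The rest of the IFN-gamma group did not pass the test. Gbp2 was at 65.6, 57.2 and 60.7 CPM in WT and 66.6, 65.9 and 67.6 CPM in KO (log2 0.12, adjusted p = 0.31, edgeR). Tap1 was at 311, 330 and 304 against 353, 363 and 330 CPM (log2 0.15, adjusted p = 0.238, edgeR), and Psmb8 had a log2 fold change of 0.13, Psmb9 0.022, Wars 0.14 and Gbp5 0.085. The chemokine genes were the 2 below zero. Cxcl9 was at 36.3, 18.9 and 33.2 CPM in WT and at 20.0, 8.51 and 16.2 CPM in KO (log2 −0.99, adjusted p = 0.0861, edgeR). Cxcl10 was at 10.4, 5.27 and 6.55 against 9.08, 4.42 and 6.03 CPM (log2 −0.19, SE 0.33, adjusted p = 0.705, edgeR), with overlapping groups. For both, KO replicate 1 was the highest KO library and WT replicate 2 the lowest WT library.

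**Figure D3:**
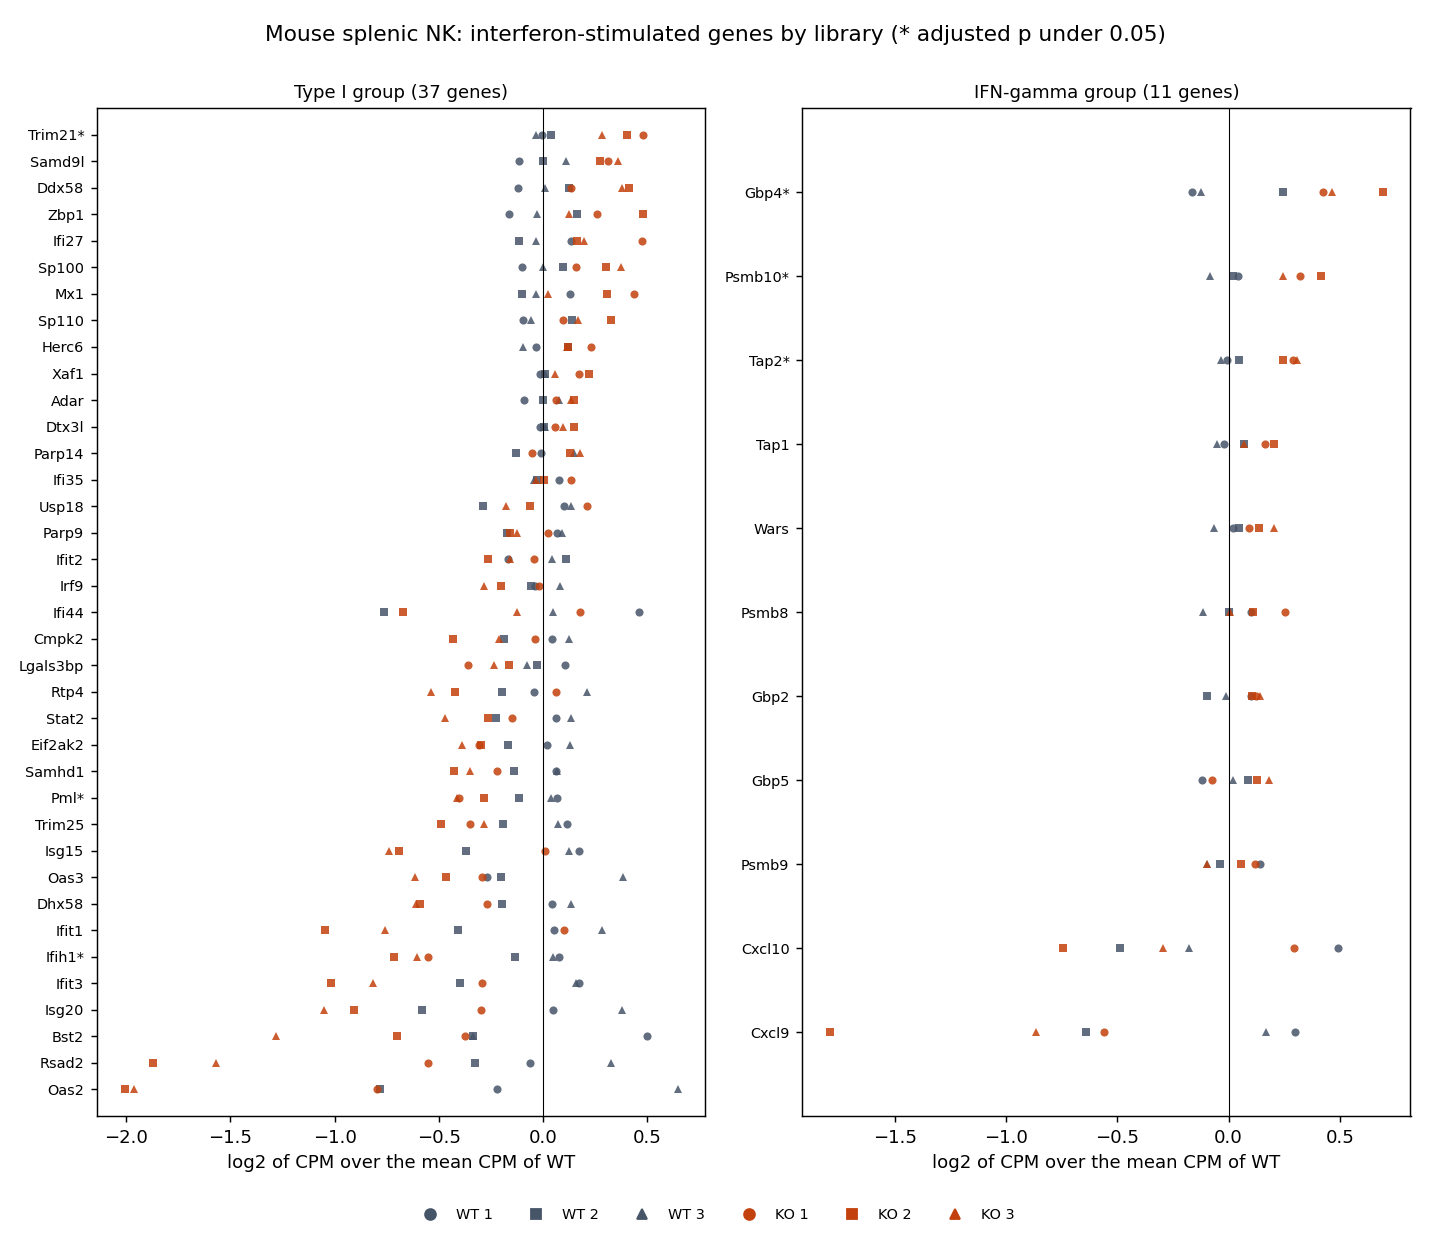
Each point is 1 mouse library, plotted as the log2 ratio of its CPM to the mean CPM of the 3 WT libraries (x axis), with one gene per line, the type I group on the left and the IFN-gamma group on the right. Orange points are KO and grey points WT, and an asterisk marks an adjusted p under 0.05 by edgeR. Oas2 and Rsad2 stand farthest to the left with a wide spread among libraries, while called genes such as Gbp4, Tap2 and Ifih1 have narrow spreads.

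Among type I genes Trim21, a cytosolic antibody receptor and ubiquitin ligase, rose from 38.9, 40.1 and 38.1 CPM to 54.4, 51.6 and 47.4 CPM (log2 0.39, SE 0.086, adjusted p = 0.0397, edgeR). Ifih1, the gene of MDA5, fell from 56.6, 48.9 and 55.4 CPM to 36.6, 32.7 and 35.3 CPM (log2 −0.62, SE 0.095, adjusted p = 0.0247, edgeR), the smallest adjusted p among the members. Pml fell from 194, 171 and 190 CPM to 140, 152 and 139 CPM (log2 −0.37, SE 0.084, adjusted p = 0.0411, edgeR). For these 3 genes the genotypes did not overlap.

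Other type I genes, some lower and some higher, had an adjusted p between 0.05 and 0.1 by edgeR. The share of all genes in this band was not counted. Oas2 was at 21.3, 14.4 and 38.8 CPM in WT and at 14.3, 6.17 and 6.36 CPM in KO NK cells (log2 −1.48, SE 0.44, adjusted p = 0.0628, edgeR). Rsad2 was at 11.7, 9.73 and 15.3 CPM in WT and at 8.32, 3.34 and 4.11 CPM in KO NK cells (log2 −1.22, SE 0.35, adjusted p = 0.0575, edgeR). In both genes KO replicate 1 lay nearest to the WT libraries. Among KO libraries it also held the highest sum of every marker list of other leukocytes and the lowest sum of NK markers. For plasmacytoid dendritic cell markers the margin was small, with 848 CPM against 815 and 624 CPM in KO replicates 2 and 3. The part of these lists was not tested. Ifit3 was at 32.1, 21.6 and 31.8 against 23.3, 14.1 and 16.2 CPM (log2 −0.68, adjusted p = 0.0784, edgeR), with overlap. Eif2ak2, at 37.0, 32.5 and 39.9 against 29.5, 29.7 and 27.9 CPM, had a log2 fold change of −0.33 (adjusted p = 0.0668, edgeR). The others were Dhx58, Trim25 and Samhd1 on the lower side, at log2 fold changes of −0.48, −0.37 and −0.33, and Ddx58, Samd9l and Sp100 on the higher side, at 0.31, 0.31 and 0.28. Sp100 was at 477, 548 and 512 CPM in WT and 571, 631 and 663 CPM in KO (adjusted p = 0.0934, edgeR).

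Of the other type I genes fixed by name, Isg15, Ifit1, Bst2, Stat2 and Irf9 were lower like Oas2, Rsad2, Ifit3 and Eif2ak2, Mx1 and Sp100 were higher and Usp18 was near zero, none of them past the test by edgeR, while DESeq2 called Bst2, Oas2, Rsad2, Ifit3 and Eif2ak2 lower. Isg15 was at 18.4, 12.6 and 17.8 CPM in WT and 16.4, 10.1 and 9.76 CPM in KO (log2 −0.43, adjusted p = 0.23, edgeR), Ifit1 had a log2 fold change of −0.49 (adjusted p = 0.29) and Mx1 of 0.26 (adjusted p = 0.179). Bst2, also a marker of plasmacytoid dendritic cells, was at 151, 84.7 and 84.8 CPM in WT and 82.5, 65.8 and 44.1 CPM in KO (log2 −0.74, adjusted p = 0.113, edgeR). Stat2 was at 138, 113 and 145 against 119, 110 and 95.3 CPM (log2 −0.29, adjusted p = 0.136, edgeR), and Irf9 had a log2 fold change of −0.16 (adjusted p = 0.248, edgeR). Usp18 was at 17.7, 13.5 and 18.1 against 19.1, 15.8 and 14.6 CPM, a difference of 0.0018 on the log2 scale whose sign changed with the size factors of DESeq2. Isg20, Oas3, Ifi44, Ifit2, Lgals3bp, Rtp4, Cmpk2 and Parp9 lay between log2 fold changes of −0.72 (Isg20) and −0.085 (Parp9), and Zbp1, Ifi27, Sp110, Herc6, Xaf1, Adar, Dtx3l, Parp14 and Ifi35 between 0.036 (Ifi35) and 0.30 (Zbp1), none past the test. KO replicate 1 was the highest KO library for 24 of the 37 type I genes tested and for 4 of the 11 of the IFN-gamma group. WT replicate 2 was the lowest WT library for 23 of 37 and 3 of 11. For mouse interferon-stimulated genes without a human member of the same name, these counts were 28 and 23 of 43 tested. For the pathway list described below they were 15 and 13 of 37. The share over all genes was not counted, so the pattern is not read as particular to the type I group.

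Of 37 pathway genes tested in mouse, 6 rose (16.2%) and 2 fell (5.41%), against 4.44% and 7.43% of all genes. Ifng itself is among the 6, and 1 of the 37 passed the filter on low counts through 1 group alone. Without KO replicate 2, KO replicate 3 or WT replicate 3 no gene of this list or of the mouse-only list was called by edgeR, and without WT replicate 1 there was 1 in each. Irf1 rose from 229, 273 and 240 CPM to 379, 366 and 327 CPM (log2 0.53, SE 0.10, adjusted p = 0.0324, edgeR). Socs1, the inhibitor of JAK kinases that interferons induce, rose 1.93-fold from 25.1, 29.8 and 24.2 CPM to 57.4, 54.7 and 40.6 CPM (adjusted p = 0.0269, edgeR), and Nlrc5 rose 1.49-fold from 149, 169 and 151 CPM to 187, 280 and 232 CPM (adjusted p = 0.0472, edgeR). In each of the 3 genes all KO libraries were above all WT libraries. Tbx21, which is also on the NK marker list, rose 1.86-fold (adjusted p = 0.0368, edgeR). Ifngr1, Ifnar1 and Irf7 had log2 fold changes of 0.093, 0.069 and −0.095 with adjusted p of 0.574, 0.581 and 0.499 by edgeR. The genes that fell were Tlr9, the DNA sensor of B cells and plasmacytoid dendritic cells, from 81.1, 63.5 and 77.9 CPM to 38.3, 34.7 and 29.3 CPM (adjusted p = 0.0181, edgeR), and Ciita, the transactivator of MHC class II, from 270, 214 and 311 CPM to 168, 99.2 and 102 CPM (adjusted p = 0.035, edgeR).

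Mouse interferon-stimulated genes without a human member of the same name included further guanylate-binding genes, some of which rose. Of 43 tested, 8 rose (18.6%) and 1 fell (2.33%), against 4.44% and 7.43% of all genes. Gbp6 rose 1.73-fold (adjusted p = 0.035, edgeR) and Gbp10 2.18-fold from at most 1.16 CPM (adjusted p = 0.0419, edgeR). Gbp7 and Gbp8 rose 1.36-fold and 1.27-fold, whereas Gbp3 and Gbp9 had log2 fold changes of −0.080 and 0.019. Gbp3, Gbp7, Gbp8 and Gbp9, and Igtp, Irgm1, Irgm2, Oasl1 and Oasl2 below, were named outside the rule for named genes, after values were seen. The GTPase genes Ifi47, from 93.3, 108 and 104 CPM to 157, 148 and 145 CPM (adjusted p = 0.0247, edgeR), and Gvin1, from 39.2, 53.1 and 49.3 CPM to 66.8, 89.0 and 81.4 CPM (adjusted p = 0.0336, edgeR), also rose, as did Ifit1bl1 (1.73-fold, adjusted p = 0.0271, edgeR). Other IFN-gamma-induced GTPases, Igtp, Irgm1 and Irgm2, had log2 fold changes of 0.020, 0.030 and 0.014. Exons overlap on the same strand for Igtp and Irgm2, for Gbp8 with Gbp4 and Gbp9, and for Gbp6 and Gbp10 with Gm43302. Those of Gbp7 overlap Gm43802, and those of Ifi47 overlap Olfr56. The split of reads is uncertain for all of these genes, so the rises in this family may not be separate. Slfn5 fell 2.54-fold from 69.5, 32.3 and 71.2 CPM to 30.6, 16.7 and 20.8 CPM (adjusted p = 0.0454, edgeR), and the mouse relatives of OASL, Oasl1 and Oasl2, had log2 fold changes of −0.67 and −1.30 without passing the test (adjusted p = 0.057 and 0.0814, edgeR).

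**Figure D4:**
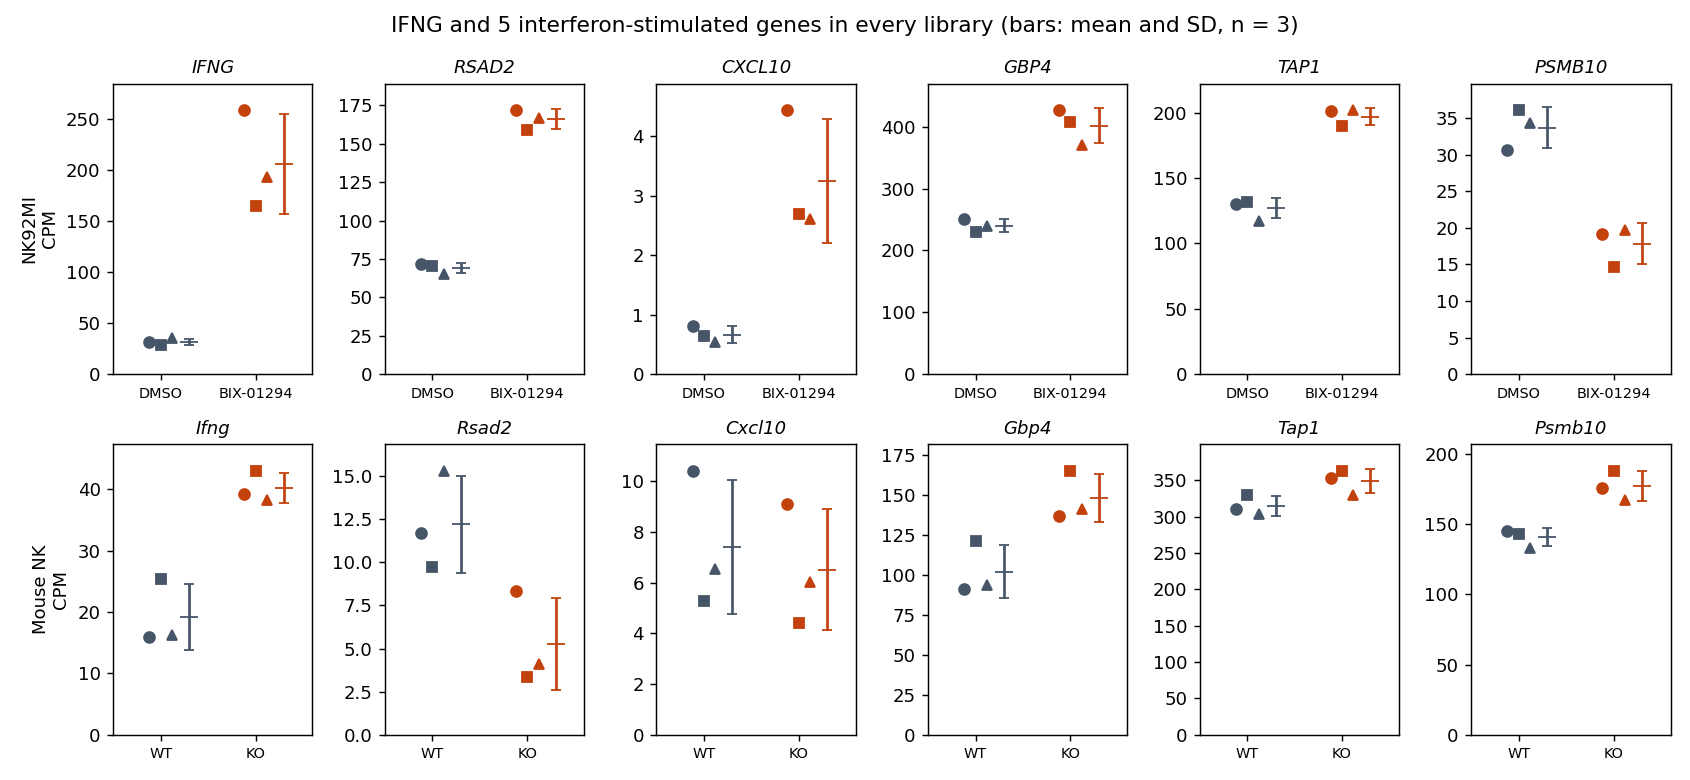
CPM (y axes, from 0) of IFNG, RSAD2, CXCL10, GBP4, TAP1 and PSMB10 in each NK92MI library (upper row) and each mouse NK library (lower row), with DMSO and WT in grey, BIX-01294 and KO in orange, and bars for the mean and SD of 3 libraries. IFNG and GBP4 are higher in both rows, while the BIX-01294 and KO libraries of RSAD2 and PSMB10 lie on opposite sides of their controls.

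The comparisons share no samples, and 47 members were tested in both. Their signs matched for 26 of 47 (55.3%), with 16 higher in both and 10 lower in both, where 49.4% of the 8789 genes tested in both by symbol had matching signs. The 47 members included 13 that were higher with BIX-01294 and lower in KO NK cells and 8 of the reverse. Of the 47 members 4 were called in both comparisons, 2 of them in opposite directions, where 387 of the 8789 genes were called in both, 199 of them in opposite directions. GBP4 rose in both, PML fell in both, PSMB10 fell with BIX-01294 and rose in KO NK cells, and IFIH1 rose with BIX-01294 and fell in KO NK cells. NLRC5 and TBX21 of the pathway list likewise fell with BIX-01294 and rose in KO NK cells, and IFNG and IRF1 rose in both. IFNGR1 and IFNAR1 rose with BIX-01294, and in KO NK cells their log2 fold changes were 0.093 and 0.069. The comparisons differ in species, in cell source and in deletion against an inhibitor, which cannot be told apart, and the difference between them was not tested.

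**Figure D5:**
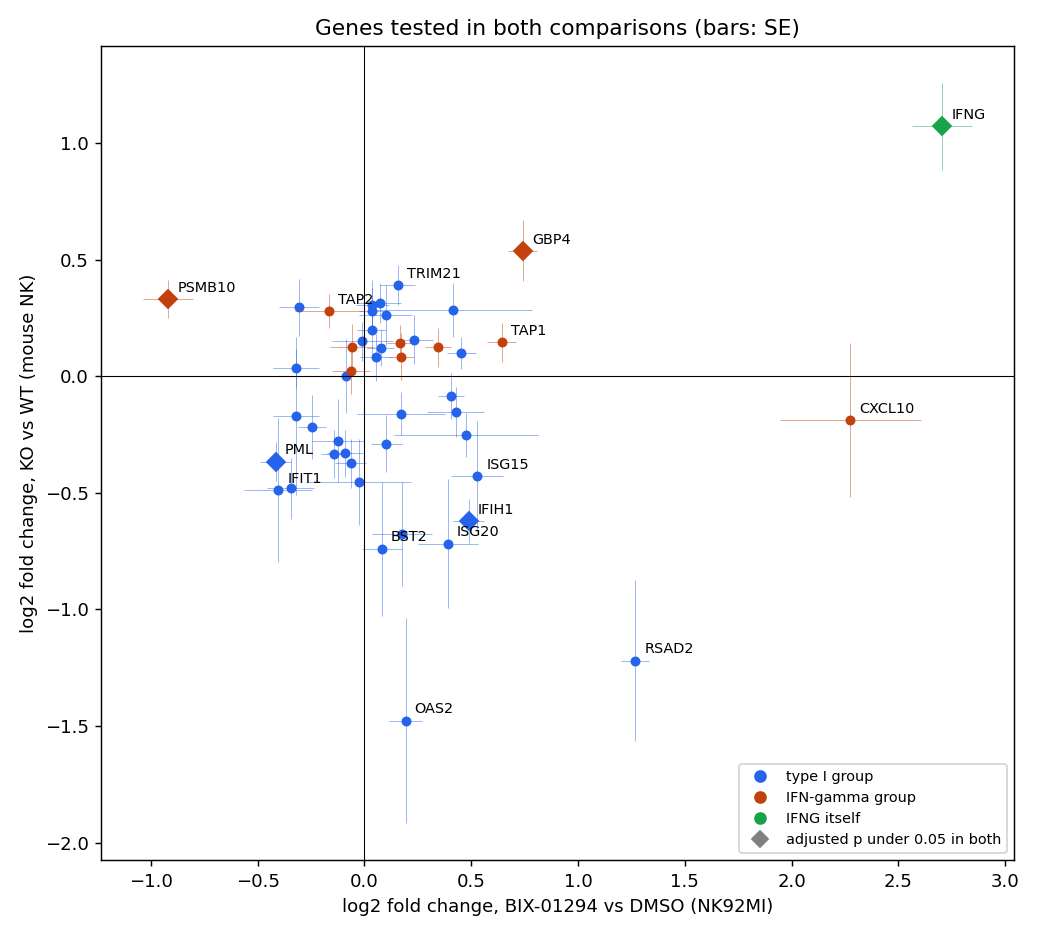
Log2 fold change with BIX-01294 in NK92MI cells (x axis) against that in KO NK cells of the mouse (y axis) for IFNG and the 47 members tested in both, with SE bars, blue for the type I group, orange for the IFN-gamma group and green for IFNG. Diamonds are genes with an adjusted p under 0.05 in both comparisons, IFNG, GBP4, PML, PSMB10 and IFIH1, and RSAD2 lies at 1.27 and −1.22.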

How the data were processed

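Polyadenylated RNA of 6 mouse and 6 human NK libraries was sequenced. The deposited values were raw counts of reads per gene, which the authors made with reads trimmed by fastp 0.23.4, aligned with STAR 2.7.11b and counted with HTSeq 2.0.3 per the submitters' processing notes, on mm10 (GRCm38) and hg38 (GRCh38). The annotation release and the strand setting are not given in the sources used here, and gene positions were read from GENCODE annotations of the same builds.

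Genes passing filterByExpr were tested with edgeR 4.0.16 (quasi-likelihood F-test, TMM, R 4.3.3), with Benjamini-Hochberg adjustment over all genes tested and a threshold of 0.05. CPM values are TMM-scaled. Total counts per library set the counting precision, and intervals and floors cover counting error only. An exact permutation test of 3 against 3 cannot go below p = 0.1, so none was used. The fits were tested on simulated data first.

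The members and lists were chosen with earlier results of these data known. Named genes were IFNG, up to 15 called members per direction, 20 set genes, up to 5 called genes per direction of the pathway and mouse-only lists, and the other members once each. Some further mouse-only genes were named outside this rule, as stated where they appear. The human DMSO columns carry no replicate number of the labels. Alternatives were the scaling, the filter, DESeq2 1.42.0, limma-voom (limma 3.58.1), a replicate block in mouse, the study's threshold and leaving out each library. Results on some items are not reported here.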

Additional observations from a re-analysis of the deposited data

How the results depend on the processing

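In the mouse comparison edgeR called 4 members higher and 2 lower. The lower count was 4 with no filter on low counts, 12 with DESeq2 and 4 with limma-voom. Of the pathway list 8 genes were called, and 23 with DESeq2, and of the mouse-only list 9, and 19 with DESeq2. Over all genes edgeR called 585 higher and 980 lower. These were 623 and 1140 with no filter, 1096 and 1996 with DESeq2, and 616 and 892 with limma-voom. The study's threshold, which it set on DESeq2, was put on the edgeR values here. The counts of members, pathway genes, mouse-only genes and all genes were then 0 in mouse, and Ifng (log2 1.07, adjusted p = 0.0279, edgeR) missed it. The DESeq2 values of Ifng (1.07, adjusted p = 4.6e-06) and Rsad2 (−1.23, adjusted p = 0.00318) lie past it. In human it left 8 members higher and 1 lower, instead of 19 and 8, and 9 pathway genes instead of 19. Over all human genes it left 794 higher and 691 lower, instead of 2348 and 2344. Rsad2 (adjusted p = 0.0575) was also called lower at 0.05 with no filter (0.0481), limma-voom (0.044), the replicate block (0.0209), without KO replicate 1 (0.0197) and without WT replicate 2 (0.0304), and not without the other 4 libraries (0.127 to 0.187). The cause was not tested.

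With the replicate block, 9 members were called higher and 10 lower in mouse, with 23 pathway and 21 mouse-only genes, and of all genes 1292 were called higher and 1930 lower. The deviations of same-numbered WT and KO libraries correlated at 0.281, 0.352 and −0.188, and WT replicate 3 correlated best with KO replicate 1 (0.284), so the numbers were not taken as pairs. In human no replicate block was fitted. No paired analysis was possible because, in human, the DMSO columns carry no number of the labels.

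Leaving out 1 library gave 0 to 5 members higher and 0 to 12 lower in mouse, 0 to 24 pathway genes, 0 to 24 mouse-only genes and an Ifng log2 fold change of 0.955 to 1.33. Over all genes these fits called 585 higher and 980 lower with every library, 0 and 0 without KO replicate 2 or KO replicate 3, 35 and 64 without WT replicate 1, 6 and 8 without WT replicate 3, 694 and 1338 without KO replicate 1, and 1433 and 2097 without WT replicate 2. Of 18 named mouse genes called beside Ifng, 0 kept the call in every such fit, and of 34 in human beside IFNG, 26 did. The human count leaves out the called members GBP5, ISG20, HERC6 and WARS1 (adjusted p of 0.0286 to 0.0469, edgeR). They had the weakest calls among members that rose and were not followed gene by gene in these fits. In human the range was 13 to 21 members higher and 4 to 7 lower, with 4 lower without DMSO library CON-1 or CON-2, 17 to 20 pathway genes and an IFNG log2 fold change of 2.51 to 2.85. Over all genes these human fits called 1850 to 2581 higher and 1641 to 2440 lower.

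Among named genes, signs changed for 7 that were not called. Usp18 (0.0018) was −0.00987 with DESeq2 size factors, −0.0084 with a mean CPM of at least 1, −0.00751 with DESeq2, −0.0168 with limma-voom and −0.123 (without KO replicate 1) to 0.0846 when 1 library was left out. Leaving out 1 library moved Cxcl10 from −0.511 to 0.136 in mouse, and in human MX1 from −0.0332 to 0.188, IRF9 from −0.0452 to 0.286, PSMB8 from −0.175 to 0.0491, BST2 from −0.000858 to 0.195 and EIF2AK2 from −0.14 to 0.0118. Across the scalings the all-gene median log2 fold change ran from 0.00273 to 0.0185 in mouse, and from −0.0212 to −0.00274 in NK92MI cells.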
